A study of Arabidopsis thaliana with 12 samples.

Results

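The phytoglobin genes HB1, HB2 and GLB3, the nitrate reductase genes NIA1 and NIA2, the nitrite reductase gene NIR1 and the S-nitrosoglutathione reductase gene GSNOR1 were followed in rosettes of Arabidopsis thaliana. They were selected by gene identifier and not by a threshold on their values, though with earlier results of these data known. All 7 were found among the 33208 features of the deposited table. RNA was sequenced from 4 groups of plants, with 3 biological replicates in each and 12 libraries in all. The first group was med25-1 at 1% oxygen for 3 h, called hypoxia here, and the second was wild type under the same hypoxia. The other two groups were med25-1 and wild type under control conditions. The line med25-1 carries a mutant allele of MED25, a subunit of Mediator, the large complex through which transcription factors reach RNA polymerase II. The sources used here do not give the nature of that allele or the ecotype. All plants were 3 weeks old and had grown on plates with 0.5% sucrose under 16 h of light a day, with no transgene or further allele named in any group.

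Phytoglobins are plant haemoglobins that bind oxygen tightly, and their oxygenated form turns nitric oxide into nitrate. Nitrate reductase, a molybdenum enzyme of the cytosol, reduces nitrate to nitrite and can also reduce nitrite to nitric oxide. Nitrite reductase, in plastids, takes nitrite on to ammonium with electrons from ferredoxin. S-nitrosoglutathione reductase breaks down S-nitrosoglutathione, the store of nitric oxide bound to glutathione. Class 1 phytoglobins such as HB1 are known for strong transcription at low oxygen, where phytoglobin and nitrate reductase form a cycle between nitrate and nitric oxide.

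Each library held 7170796 to 20501572 reads assigned to genes. Genes are called changed where edgeR's quasi-likelihood test gave an adjusted p under 0.05, by the Benjamini-Hochberg method over the 18212 genes tested. The library med25-1 hypoxia replicate 3 stood apart: it was the shallowest, and 8.97% of its reads came from its 20 most abundant genes, where the other 11 libraries had 13.4% to 15.9%. For several values of the 7 genes, though not for all, the value without it is also given. The treatment labels were checked with ADH1, an alcohol dehydrogenase of fermentation, which rose under hypoxia by 5.35 in med25-1 and 5.90 in wild type on the log2 scale. PDC1, also set as a check, rose by 6.66 in med25-1 and 9.03 in wild type, from at most 0.289 CPM in control libraries. Under hypoxia PDC1 was lower in med25-1 than in wild type, at -1.47 ± 0.45 (SE, edgeR adjusted p = 0.036). No difference in its response between genotypes was called (edgeR adjusted p = 0.943). Transcript of MED25 itself was present in all libraries, at 14.2 to 31.2 CPM (counts scaled by library size) in the 6 med25-1 libraries and 26.2 to 38.0 CPM in the 6 wild-type libraries, with a log2 difference between med25-1 and wild type of -0.96 ± 0.20 (SE, edgeR adjusted p = 0.0066) under hypoxia and -0.45 ± 0.20 (edgeR adjusted p = 0.133) under control conditions. The transcript level alone does not test the genotype label. Intron reads of MED25 numbered 17, 35 and 12 in med25-1 under hypoxia and 41, 24 and 50 under control conditions. In wild type they numbered 5, 5 and 6 under hypoxia and 4, 7 and 3 under control conditions. The labelled lines thus did not overlap in intron reads of this gene, and what gave that difference was not tested. The tissue label was checked with 5 rosette leaf markers, whose summed level was 21799 to 33933 RPKM (exon reads scaled to exon length and to library size) in med25-1 under hypoxia and 33200 to 36556 RPKM in wild type under hypoxia. Under control conditions that sum was 29638 to 34187 RPKM in med25-1 and 35071 to 39134 RPKM in wild type. Of the 5, edgeR called 1 lower in med25-1 than in wild type under hypoxia and 0 under control conditions (3 and 2 at an unadjusted p under 0.05, and 3 and 2 with DESeq2). Over all tested genes edgeR called 21.6% and 17.1%, higher or lower, and 36.4% and 31.9% had an unadjusted p under 0.05. The count under hypoxia is near that share and is no result about leaf markers. The marker called was CA1, a carbonic anhydrase, with a log2 difference of -0.86 ± 0.22 (edgeR adjusted p = 0.0175), a call lost without wild-type hypoxia replicate 2 or 3 and with the 2 groups alone. The 5 root markers summed to at most 0.386 RPKM, and the root genes EXPA7 and RHD6 had no read in any library. The 4 flower markers summed to 0.767 to 1.35 RPKM in med25-1 and 2.31 to 2.74 RPKM in wild type under hypoxia, and to 0.287 to 0.406 RPKM in med25-1 and 0.295 to 0.887 RPKM in wild type under control conditions. Of these only PI, a petal and stamen identity gene, had enough reads to be tested. It was higher under hypoxia by 2.52 ± 0.40 in med25-1 (edgeR adjusted p = 0.00381) and 2.67 ± 0.34 in wild type (edgeR adjusted p = 0.00064) on the log2 scale, the value in med25-1 not called with the 2 groups alone. PI was lower in med25-1 than in wild type, at -1.64 ± 0.32 under hypoxia (edgeR adjusted p = 0.00445) and -1.49 ± 0.42 under control conditions (edgeR adjusted p = 0.0318), the second lost when any 1 control library was left out. The part of these marker differences in the results that follow was not tested. In whole rosettes, fewer cells of a type and less RNA per cell cannot be told apart.

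Hypoxia raised 2 of the 3 phytoglobin genes in both genotypes, HB1 by 158-fold in med25-1 and 100.4-fold in wild type and GLB3 by 2.80-fold in med25-1 and 3.60-fold in wild type. No change of HB2 was called. Over all 7 genes, 2 were called under hypoxia in med25-1, where 5.28% of all tested genes were called. In wild type the same 2 genes were called, where 6.48% of all tested genes were. Both rose, against 1.88% of all tested genes called higher in med25-1 and 3.05% in wild type. The median log2 fold change of the 7 genes was 0.16 in med25-1 and 0.33 in wild type, against 0.023 and 0.0036 over all tested genes.

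HB1 (AT2G16060, chr2:6982531-6983777 on TAIR10, minus strand, 989 bases of exon) encodes the class 1 phytoglobin. Its level was 700.0, 519.6 and 497 CPM in med25-1 under hypoxia (values throughout are given by replicate, 1 to 3), against 4.51, 4.08 and 2.35 CPM in med25-1 under control conditions. Wild-type libraries had 414, 383 and 356 CPM under hypoxia, against 3.34, 4.38 and 3.77 CPM under control conditions. All 6 hypoxia libraries lay above all 6 control libraries. The log2 fold change was 7.301 ± 0.27 (SE, edgeR adjusted p = 3.7e-08) in med25-1 and 6.65 ± 0.27 (edgeR adjusted p = 7.5e-08) in wild type. These ranked 6 and 19 from the highest among the 18212 genes tested. The control values rested on few reads, 78, 60 and 47 in med25-1 and 45, 50 and 71 in wild type. By RPKM, HB1 stood between ranks 97 and 128 of all features in the med25-1 hypoxia libraries and between ranks 170 and 190 in the wild-type hypoxia libraries. In the control libraries it stood between ranks 11909 and 13786 in med25-1 and between ranks 12049 and 12806 in wild type.

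The 3 med25-1 hypoxia libraries also lay above the 3 wild-type hypoxia libraries in HB1, without overlap. That difference, 0.57 ± 0.20 on the log2 scale, missed the threshold (edgeR adjusted p = 0.0616), with an approximate 95% interval of 0.18 to 0.97. It passed without med25-1 hypoxia replicate 3, at 0.67 (edgeR adjusted p = 0.0453), without med25-1 control replicate 3 (edgeR adjusted p = 0.0277), with DESeq2's size factors (edgeR adjusted p = 0.0484) and with DESeq2 (adjusted p = 0.0145), in a range of 0.0145 to 0.175 over 19 alternatives. Under control conditions the genotypes overlapped in HB1 and the difference was -0.08 ± 0.24 (edgeR adjusted p = 0.858). The test of the difference between the hypoxia responses of the 2 genotypes gave 0.65 ± 0.32 for HB1 (edgeR adjusted p = 0.929).

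Reads in the intron sequence of HB1 made up 2.49% of its reads in the med25-1 hypoxia libraries (591 of 23722, exact Clopper-Pearson 95% interval 2.30% to 2.698%) and 3.00% in the wild-type hypoxia libraries (461 of 15381, 2.73% to 3.28%). By library the share ran from 1.91% to 2.95% in med25-1 under hypoxia and from 2.86% to 3.08% in wild type under hypoxia, so the groups overlapped. In med25-1 control libraries 0 of 185 reads were intronic (exact interval 0% to 1.97%), an interval that holds neither hypoxia value. In wild-type control libraries 7 of 166 were (4.22%, 1.71% to 8.495%), an interval that holds both. These intervals cover counting error only.

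The 68 bases before the annotated start of HB1 that lie in no other gene are shown because no other of the 7 genes had as large a response. They are chr2:6983778-6983845 on the RefSeq TAIR10.1 genome, minus strand, 5′ to 3′, and beyond them the window enters PDV2, a plastid division gene.
HB1 upstream: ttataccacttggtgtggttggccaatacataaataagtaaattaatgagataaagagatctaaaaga
In the 250 bases before each start, 2 motifs were searched on both strands: AAACCA, the core of the anaerobic response element described from maize and Arabidopsis ADH1, and CACGTG, the G-box, a palindrome whose ends can share bases with a match to AAACCA. HB1 held neither. Of 32899 gene starts with such a window, 27.1% held AAACCA and 5.88% held CACGTG.

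GLB3 (AT4G32690, chr4:15765112-15767106, plus strand, 1146 bases of exon) encodes the truncated haemoglobin of Arabidopsis. It stood at 14.1, 13.5 and 14.1 CPM in the med25-1 hypoxia libraries, against 5.49, 4.89 and 4.45 CPM in the med25-1 control libraries. In wild type GLB3 stood at 17.8, 13.3 and 15.2 CPM under hypoxia, against 3.72, 4.90 and 4.25 CPM under control conditions. Every hypoxia library exceeded every control library, and the genotypes overlapped within each treatment. The rise was 1.49 ± 0.16 on the log2 scale in med25-1 (edgeR adjusted p = 0.00028) and 1.85 ± 0.16 in wild type (edgeR adjusted p = 4.5e-05), and both passed under all 19 alternatives. GLB3 was a low transcript, with 50 to 254 reads a library. It overlaps AT4G32680, a gene of the opposite strand, by 58 bases, and the sources used here do not say which strand was counted, so some of its reads may belong to that neighbour. Its upstream window lies wholly within that neighbour and held AAACCA once, from 28 to 23 bases before the start on the same strand.

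HB2 (AT3G10520, chr3:3276163-3277930, minus strand, 995 bases of exon) encodes the class 2 phytoglobin, and it was the main phytoglobin transcript of the control libraries. It stood at 147, 108 and 36.9 CPM in the med25-1 hypoxia libraries, against 139, 95.1 and 97.8 CPM in the med25-1 control libraries. In wild type HB2 stood at 124, 140.0 and 121 CPM under hypoxia, against 158, 128 and 139 CPM under control conditions. One library, med25-1 hypoxia replicate 3, lay below the other 11, and hypoxia and control overlapped in both genotypes. The hypoxia log2 fold change was -0.18 ± 0.35 in med25-1 (edgeR adjusted p = 0.799, approximate 95% interval -0.87 to 0.52) and -0.14 ± 0.35 in wild type (edgeR adjusted p = 0.897, -0.84 to 0.55). Without that library the value in med25-1 was 0.21 (edgeR adjusted p = 0.56). The genotypes differed by -0.39 ± 0.35 under hypoxia (edgeR adjusted p = 0.459) and -0.36 ± 0.35 under control conditions (edgeR adjusted p = 0.52), and neither difference was called. Without med25-1 hypoxia replicate 3 the difference under hypoxia was -0.0073 (edgeR adjusted p = 0.987).

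**Figure D1:**
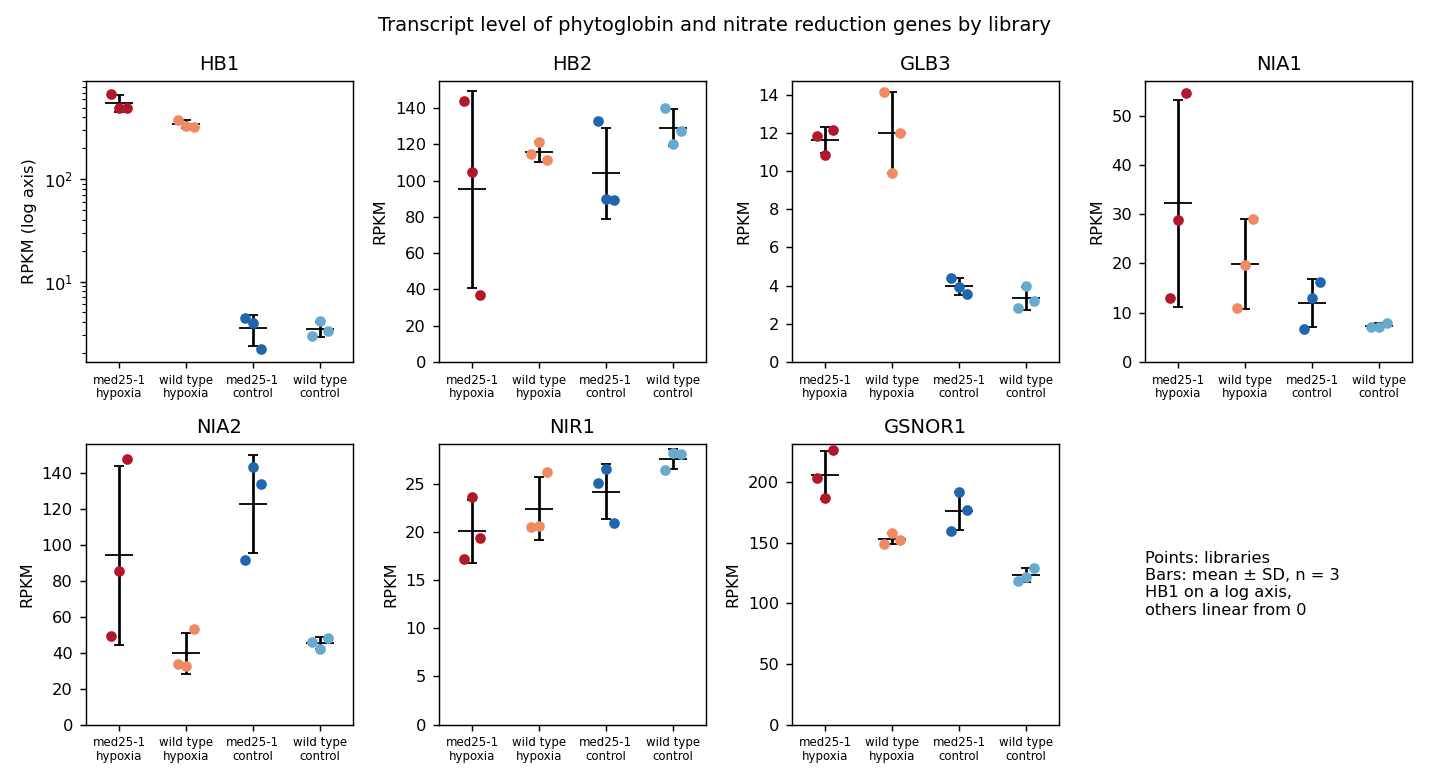
RPKM of the 7 genes (vertical axis, log scale for HB1 and linear from 0 for the others) in each of the 12 libraries, by group, with the mean and SD of 3 libraries. HB1 stands at 322 to 681 RPKM in the hypoxia libraries and at 2.19 to 4.38 RPKM in the control libraries, and NIA1 and NIA2 spread most among the med25-1 hypoxia libraries.

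Set per length of transcript, HB1 held the largest share of the 3 phytoglobins under hypoxia and a small one under control conditions. HB1 made up 81.4%, 81.1% and 91.0% of the summed RPKM of HB1, HB2 and GLB3 in the med25-1 hypoxia libraries, against 3.09%, 4.03% and 2.30% in the med25-1 control libraries. In wild type its share was 74.7%, 71.4% and 72.3% under hypoxia, against 2.02%, 3.21% and 2.45% under control conditions. The hypoxia libraries exceeded the control libraries by a mean of 75.8 percentage points over the 2 genotypes, and by 74.2 points without med25-1 hypoxia replicate 3 (two-sided exact permutation test of the full set within genotype, 400 arrangements, p = 0.005, the smallest that design can give). Every hypoxia library already lay above every control library in HB1, so this p adds nothing to the HB1 calls given above. GLB3 reached 11.6 ± 0.682 RPKM (SD, n = 3) in med25-1 and a range of 9.88 to 14.1 RPKM in wild type under hypoxia, the least of the 3 by mean there.

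Of the nitrate reductase genes, NIA2 was called higher in med25-1 than in wild type under both treatments, by 2.18-fold under hypoxia and 2.64-fold under control conditions. Each call was lost when certain single libraries were left out, and under hypoxia the genotypes overlapped. No hypoxia response of NIA2 was called. NIA1 had higher means under hypoxia, by 2.55-fold in med25-1 and 2.75-fold in wild type, which edgeR did not call in the fit without a replicate block. The share of NIA1 in the pair was higher in every hypoxia library than in any control library.

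The 250 bases before the start of each nitrate reductase gene are shown side by side as a description, and both windows are free of other genes. NIA2 was called between genotypes and NIA1 was not, but their genotype differences were not tested against each other. They are chr1:29239485-29239734, minus strand, for NIA1 and chr1:14158202-14158451, plus strand, for NIA2 on the RefSeq TAIR10.1 genome, 5′ to 3′. Capitals mark a match to AAACCA on either strand.
NIA1 upstream: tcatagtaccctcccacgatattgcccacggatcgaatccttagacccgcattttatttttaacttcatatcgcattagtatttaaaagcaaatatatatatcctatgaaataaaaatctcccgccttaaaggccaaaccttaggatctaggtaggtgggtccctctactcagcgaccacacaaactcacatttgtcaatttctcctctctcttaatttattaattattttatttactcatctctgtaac
NIA2 upstream: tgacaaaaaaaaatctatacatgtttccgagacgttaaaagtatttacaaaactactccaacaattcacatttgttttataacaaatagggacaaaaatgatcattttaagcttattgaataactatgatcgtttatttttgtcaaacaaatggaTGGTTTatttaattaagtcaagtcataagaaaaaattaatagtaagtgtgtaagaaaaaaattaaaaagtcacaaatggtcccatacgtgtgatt
NIA2 held 1 match, from 95 to 90 bases before the start and on the opposite strand, and NIA1 held none. Neither held CACGTG, nor did any of the 7 windows. HB2, NIR1 and GSNOR1 also lacked AAACCA, so that 2 of the 7 windows held it, against the 27.1% of all windows given above.

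NIA1 (AT1G77760, chr1:29235721-29239484, minus strand, 3155 bases of exon) stood at 42.1, 93.4 and 172 CPM in the med25-1 hypoxia libraries, against 21.7, 42.8 and 55.5 CPM in the med25-1 control libraries. Wild-type libraries had 36.9, 70.6 and 99.9 CPM under hypoxia, against 24.7, 23.6 and 26.9 CPM under control conditions. Hypoxia libraries lay above control libraries without overlap in wild type, and the groups overlapped in med25-1. The log2 fold change was 1.35 ± 0.48 in med25-1 (edgeR adjusted p = 0.116) and 1.46 ± 0.48 in wild type (edgeR adjusted p = 0.107). DESeq2 called both, with adjusted p of 0.0343 and 0.0236, and the range over 19 alternatives was 0.0335 to 0.349 in med25-1 and 0.0111 to 0.362 in wild type. Without med25-1 hypoxia replicate 3, which had the highest NIA1 level, the value in med25-1 was 0.76 (edgeR adjusted p = 0.349), and NIA1 in wild type was called (edgeR adjusted p = 0.04). Both were called without med25-1 hypoxia replicate 1 (edgeR adjusted p = 0.0407 in med25-1 and 0.0451 in wild type), and with the 2 wild-type groups alone the value in wild type was (edgeR adjusted p = 0.0111). The genotypes differed by 0.56 ± 0.47 under hypoxia (edgeR adjusted p = 0.423) and 0.67 ± 0.48 under control conditions (edgeR adjusted p = 0.362), with overlap in both. The difference under hypoxia was -0.025 (edgeR adjusted p = 0.98) when med25-1 hypoxia replicate 3 was left out.

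NIA2 (AT1G37130, chr1:14158452-14161938, plus strand, 3205 bases of exon) gives most of the nitrate reductase activity of Arabidopsis leaves. It stood at 161, 281 and 471 CPM in the med25-1 hypoxia libraries, against 115, 119.8 and 184 CPM in the wild-type hypoxia libraries. Under control conditions it stood at 306, 480.0 and 466 CPM in med25-1, against 165, 142 and 168 CPM in wild type. The genotypes did not overlap under control conditions, and under hypoxia med25-1 replicate 1 fell within the wild-type range. The log2 difference was 1.124 ± 0.33 under hypoxia (edgeR adjusted p = 0.0312) and 1.398 ± 0.33 under control conditions (edgeR adjusted p = 0.0153).

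The call of NIA2 under hypoxia rested on single libraries. It was lost without med25-1 hypoxia replicate 3, where the difference was 0.67 (edgeR adjusted p = 0.13). Leaving out wild-type hypoxia replicate 1 or 2 also ended it, with edgeR adjusted p of 0.102 and 0.0978, as did a fit to the 2 hypoxia groups alone (edgeR adjusted p = 0.0996). Under control conditions it was lost without wild-type control replicate 2 or 3, with edgeR adjusted p of 0.0644 and 0.0551. Hypoxia gave NIA2 a log2 fold change of -0.45 ± 0.33 in med25-1 (edgeR adjusted p = 0.42) and -0.18 ± 0.33 in wild type (edgeR adjusted p = 0.853). The value in med25-1 was -0.91 (edgeR adjusted p = 0.0964) when its hypoxia replicate 3 was left out. The leaf marker CA1 was called lower in med25-1 under hypoxia and the flower marker PI under both treatments, and their part in the NIA2 difference was not tested.

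Of the summed RPKM of NIA1 and NIA2, NIA1 made up 20.9%, 25.2% and 27.0% in the med25-1 hypoxia libraries, against 6.74%, 8.30% and 10.8% in the med25-1 control libraries. In wild type NIA1 made up 24.6%, 37.5% and 35.4% under hypoxia, against 13.2%, 14.5% and 14.0% under control conditions. NIA2 was the more abundant of the pair in all 12 libraries. The share was higher under hypoxia by a mean of 17.2 percentage points over the 2 genotypes (the same test, exact permutation p = 0.005). The difference lay between 16.0 and 19.2 points when any 1 library was left out or when exon reads per kilobase were used. Within a genotype, the smallest p that an exact permutation test of 3 against 3 libraries can give is 0.1. By group the share averaged 24.4% ± 3.12 (SD, n = 3) in med25-1 and 32.5% ± 6.90 in wild type under hypoxia, and 8.61% ± 2.04 in med25-1 and 13.9% ± 0.634 in wild type under control conditions. The genotypes overlapped in share under hypoxia and not under control conditions, a difference that was not tested.

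**Figure D2:**
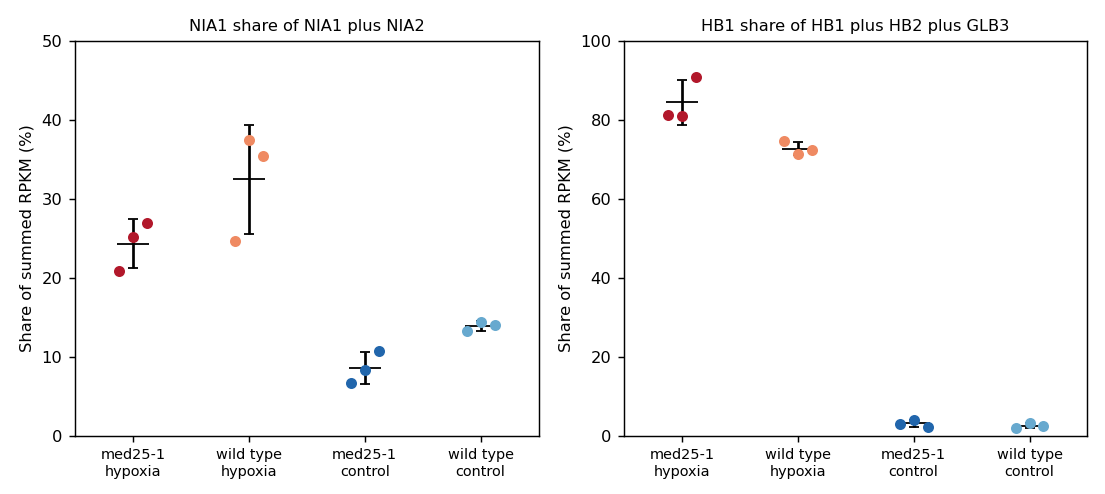
Share of NIA1 in the summed RPKM of NIA1 and NIA2 (left, axis to 50%) and share of HB1 in the summed RPKM of the 3 phytoglobins (right, axis to 100%) in each library, by group, with the mean and SD of 3 libraries. Both shares are higher in all 6 hypoxia libraries than in all 6 control libraries, 20.9% to 37.5% against 6.74% to 14.5% for NIA1.

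NIR1 (AT2G15620, chr2:6810395-6812941, plus strand, 2193 bases of exon), the single nitrite reductase gene of Arabidopsis, had lower means under hypoxia in both genotypes, without a call. It stood at 38.5, 53.3 and 42.4 CPM in the med25-1 hypoxia libraries, against 57.2, 61.4 and 50.2 CPM in the med25-1 control libraries. Wild-type libraries had 48.1, 51.6 and 62.5 CPM under hypoxia, against 65.2, 65.5 and 66.97 CPM under control conditions. The 3 wild-type control libraries lay above the other 9, and the med25-1 groups overlapped. Its log2 fold change under hypoxia was -0.33 ± 0.15 in med25-1 (edgeR adjusted p = 0.198) and -0.28 ± 0.15 in wild type (edgeR adjusted p = 0.34). Between genotypes it was -0.27 ± 0.15 under hypoxia (edgeR adjusted p = 0.205) and -0.23 ± 0.15 under control conditions (edgeR adjusted p = 0.31). None of these passed the threshold, in the tests given or in any of their 19 alternatives. The approximate 95% interval of the hypoxia value was -0.62 to -0.04 in med25-1 and -0.57 to 0.00 in wild type.

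GSNOR1 (AT5G43940, chr5:17684156-17686534, plus strand, 1440 bases of exon) stood at the head of the 7 by mean RPKM in the med25-1 control group and next to it in the other 3 groups, and was higher in med25-1 than in wild type under control conditions. It stood at 299, 277 and 324 CPM in the med25-1 hypoxia libraries, against 230.3, 261 and 238 CPM in the wild-type hypoxia libraries. Under control conditions it stood at 239.7, 289 and 278 CPM in med25-1, against 191, 186 and 203 CPM in wild type. The med25-1 libraries lay above the wild-type libraries without overlap under both treatments. The log2 difference was 0.30 ± 0.12 under hypoxia (edgeR adjusted p = 0.102) and 0.48 ± 0.12 under control conditions (edgeR adjusted p = 0.0234), a 1.39-fold difference under control conditions. That call was lost when any 1 of 5 libraries was left out, wild-type control replicate 1, 2 or 3 and med25-1 control replicate 2 or 3, with edgeR adjusted p of 0.0694, 0.0929, 0.0682, 0.0879 and 0.0709. Hypoxia gave a log2 fold change of 0.16 ± 0.12 in med25-1 (edgeR adjusted p = 0.469) and 0.33 ± 0.12 in wild type (edgeR adjusted p = 0.163), and 0.097 in med25-1 when its hypoxia replicate 3 was left out (edgeR adjusted p = 0.68). The call of PI under control conditions, given above, stands beside that of GSNOR1, and its part was not tested. DESeq2 called GSNOR1 between genotypes under hypoxia (adjusted p = 0.0268) and for hypoxia in wild type (adjusted p = 0.0475). GSNOR1 overlaps AT5G43950 of the opposite strand by 35 bases.

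Between genotypes, then, 1 of the 7 genes was called under hypoxia, NIA2, where 21.6% of all tested genes were called. Under control conditions 2 were called, NIA2 and GSNOR1, where 17.1% of all tested genes were. Both counts are near the share of all genes and are no result about the 7 genes as a set. Without med25-1 hypoxia replicate 3 the single gene called under hypoxia was HB1 in place of NIA2. The libraries of the 2 genotypes did not overlap for 2 of the 7 genes under hypoxia, as for 36.4% of all tested genes, and for 3 under control conditions, as for 47.6%. Between hypoxia and control the groups did not overlap for 2 of the 7 in med25-1, where 22.7% of all tested genes did not. In wild type they did not overlap for 5 of the 7, a larger share than the 32.5% of all tested genes. The interaction of hypoxia and genotype was called by edgeR for 0 of the 7 genes and for 0 of 18212 (0.0%), with 0 of the 7 and 910 of all genes at an unadjusted p under 0.05. DESeq2 called it for 16 genes, none of them among the 7. In simulated counts the edgeR test of the interaction recovered 16% of 2-fold changes, so the absence of calls does not show equal responses.

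**Figure D3:**
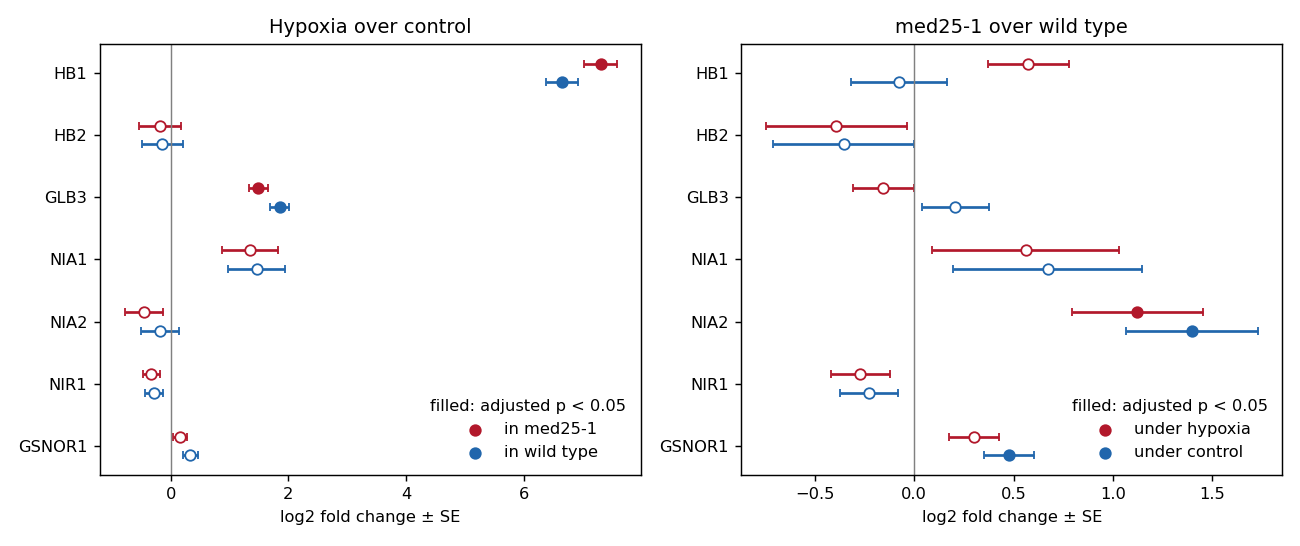
Log2 fold change with its SE for the 7 genes, hypoxia over control in med25-1 and wild type (left) and med25-1 over wild type under hypoxia and control conditions (right). Filled points have an edgeR adjusted p under 0.05: HB1 and GLB3 for hypoxia in both genotypes, NIA2 for genotype under both treatments and GSNOR1 under control conditions.

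By mean RPKM, the order under hypoxia in med25-1 was HB1, GSNOR1, HB2, NIA2, NIA1, NIR1 and GLB3. In wild type under hypoxia it was HB1, GSNOR1, HB2, NIA2, NIR1, NIA1 and GLB3. HB1 at the head and GSNOR1 after it did not overlap with their neighbours in either, at 558 ± 106 and 206 ± 19.9 RPKM in med25-1 (SD, n = 3) and 344 ± 31.6 and 153 ± 4.71 RPKM in wild type. In med25-1 the libraries of HB2 and NIA2, of NIA2 and NIA1, and of NIA1 and NIR1 overlapped, and in wild type those of NIR1 and NIA1 and of NIA1 and GLB3. Under control conditions the order was GSNOR1, NIA2, HB2, NIR1, NIA1, GLB3 and HB1 in med25-1, where NIA2 overlapped with HB2 and GLB3 with HB1. In wild type under control conditions it was HB2, GSNOR1, NIA2, NIR1, NIA1, HB1 and GLB3, where HB2 overlapped with GSNOR1 and HB1 with GLB3. HB1 stood last or next to last in the control groups.

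The genes that bring nitrate in, sense it and use its product were examined from lists of other pathway members. Among nitrate transporters, 14 of 19 were tested. Under hypoxia 0 rose and 1 fell in each genotype, where 3.4% of all tested genes fell in med25-1 and 3.43% in wild type, with a median log2 fold change of -0.29 in med25-1 and -0.24 in wild type. The one that fell was NRT1.12, a low-affinity transporter of leaf veins that moves nitrate between leaves, with a log2 fold change of -1.28 in med25-1 (edgeR adjusted p = 0.0181) and -1.29 in wild type (edgeR adjusted p = 0.0122). It stood at 14.8, 18.6 and 10.4 CPM in the med25-1 hypoxia libraries, against 44.7, 28.6 and 34.1 CPM in the med25-1 control libraries. Wild-type libraries had 11.4, 23.7 and 17.9 CPM under hypoxia, against 47.3, 39.3 and 43.1 CPM under control conditions. No hypoxia library reached the level of a control library in either genotype. The call in med25-1 was lost without med25-1 control replicate 1 and with the 2 groups alone, and that in wild type when the first control library or the third hypoxia library of that genotype was left out, at edgeR adjusted p of at most 0.0902 and 0.056.

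Between genotypes, 1 transporter was higher and 2 were lower in med25-1 under hypoxia, and 1 was higher and 3 were lower under control conditions. These 3 and 4 of 14 genes stand beside 21.6% and 17.1% of all tested genes, and they changed with single libraries, so they are no result about transporters. Leaving out 1 library gave 2 to 5 calls under hypoxia (5 without med25-1 hypoxia replicate 1, 2 without its replicate 3). Under control conditions it gave 1 to 5, with 1 call without wild-type control replicate 3 or med25-1 control replicate 3 and 2 without wild-type control replicate 1 or med25-1 control replicate 2. NRT1.4, a low-affinity transporter of leaf petioles, was lower in med25-1, with a log2 difference of -1.02 under hypoxia and -1.66 under control conditions (edgeR adjusted p = 0.00793 and 0.00059), called under all alternatives. NRT1.11, the close relative of NRT1.12, had differences of -1.04 under hypoxia and -1.25 under control conditions (edgeR adjusted p = 0.0292 and 0.0166), and each call was lost under 4 of 19 alternatives. These were the omission of wild-type replicate 2 or 3 or med25-1 replicate 3 under either treatment, of med25-1 control replicate 2, and the fit to the 2 hypoxia groups alone. NPF3.1, a transporter of the same family, was higher in med25-1 by 1.14 under hypoxia and 0.90 under control conditions (edgeR adjusted p = 0.00864 and 0.0288), the control call being lost when med25-1 control replicate 3 or wild-type control replicate 1 or 3 was left out. The high-affinity root transporters NRT2.1, NRT2.2, NRT2.4 and NRT2.5 had 54, 1, 0 and 29 reads over the 12 libraries and were not tested.

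Of 17 tested genes of nitrate signalling, 0 rose and 6 fell under hypoxia in med25-1, and 0 rose and 2 fell in wild type, where 3.4% and 3.43% of all tested genes fell. The 6 in med25-1 became 2 without med25-1 control replicate 3, 3 without med25-1 control replicate 1 and 1 with the 2 groups alone, and stayed at 6 in number without med25-1 hypoxia replicate 3. In wild type 1 rose and 3 fell without that last library, and 1 fell without any 1 of the 9 libraries outside the med25-1 hypoxia group. The median was -0.28 in med25-1 and -0.15 in wild type. LBD37, a nitrate-induced repressor of nitrate uptake and assimilation genes, stood at 33.1, 39.6 and 46.4 CPM in the med25-1 hypoxia libraries, against 93.6, 95.4 and 107 CPM in the med25-1 control libraries. Wild-type libraries had 29.2, 37.1 and 35.3 CPM under hypoxia, against 82.4, 84.1 and 78.3 CPM under control conditions. The groups did not overlap, and the log2 fold change was -1.31 ± 0.14 in med25-1 (edgeR adjusted p = 0.00028) and -1.27 ± 0.14 in wild type (edgeR adjusted p = 0.00026), called under all 19 alternatives. Its relative LBD39 fell in med25-1, with a log2 fold change of -1.01 ± 0.17 (edgeR adjusted p = 0.00563), a call lost with the 2 groups alone (edgeR adjusted p = 0.0516). BT2, a BTB and TAZ domain protein that lowers nitrate transporter expression, fell in med25-1, with a log2 fold change of -1.02 ± 0.20 (edgeR adjusted p = 0.0136), a call lost without med25-1 control replicate 3 and with the 2 groups alone (edgeR adjusted p of at most 0.163). NLP6, of the family of nitrate-sensing transcription factors, fell in wild type, with a log2 fold change of -0.58 ± 0.16 (edgeR adjusted p = 0.0469). That call was lost under 11 of 19 alternatives, among them the omission of any 1 of the 9 libraries outside the med25-1 hypoxia group. edgeR called no difference in response between the genotypes for any gene of the 5 lists, with 8 at an unadjusted p under 0.05. DESeq2 called 1, GDH2 of ammonium assimilation (log2 -1.42, DESeq2 adjusted p = 0.0471). Between genotypes 1 was higher and 2 were lower in med25-1 under hypoxia, and 2 were higher under control conditions, where 21.6% and 17.1% of all tested genes were called. Leaving out 1 library gave 2 to 7 calls under hypoxia (7 without med25-1 hypoxia replicate 2, 5 without its replicate 1) and 2 to 5 under control conditions (5 without med25-1 hypoxia replicate 3). With the replicate block, whose numbers may pair the hypoxia libraries of the genotypes by their correlations, the hypoxia count was 2 higher and 3 lower. AT1G25550, a myb-like transcription factor, was higher in med25-1, with a log2 difference of 0.93 ± 0.16 under hypoxia (edgeR adjusted p = 0.00262) and 0.85 ± 0.16 under control conditions (edgeR adjusted p = 0.00514). LBD38 was lower in med25-1 under hypoxia, at -0.78 ± 0.14 (edgeR adjusted p = 0.00315), and LBD39 was higher in med25-1 under control conditions by 0.84 ± 0.17 (edgeR adjusted p = 0.00646).

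Genes for the molybdenum cofactor of nitrate reductase, the sirohaem of nitrite reductase and their reductant were also examined, and all 14 were tested. Under hypoxia 0 were called in med25-1 and 1 rose in wild type, where 5.28% and 6.48% of all tested genes were called. These counts are near those shares and are no result about the list. At an unadjusted p under 0.05 there were 3 in med25-1 and 4 in wild type, against 23.9% and 18.2% of all tested genes. DESeq2 called 2 of the 14 in each. The gene called by edgeR was CNX7, a subunit of molybdopterin synthase, at 0.50 ± 0.13 (edgeR adjusted p = 0.0388), lost under 8 of 19 alternatives, among them the omission of any 1 wild-type library or of med25-1 control replicate 1. The smallest p in med25-1 belonged to G6PD3, a plastid glucose-6-phosphate dehydrogenase, at 0.91 ± 0.28 (edgeR adjusted p = 0.0833). Between genotypes, CNX5 was higher in med25-1 and AT2G43760, of the molybdopterin synthase MoaE family, was lower under hypoxia, at 0.56 and -0.39 (edgeR adjusted p = 0.0434 and 0.0446). These were lost under 11 and 13 of 19 alternatives, each with 10 of the 12 libraries left out in turn. Over all tested genes 21.6% were called between genotypes under hypoxia and 17.1% under control conditions. Of the 14, edgeR called 0 under control conditions, with 3 at an unadjusted p under 0.05 and 2 called by DESeq2. When med25-1 hypoxia replicate 3 was left out, 0 were called between genotypes under hypoxia and 3 under control conditions, and 2 rose under hypoxia in wild type.

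Ammonium assimilation, the step after nitrite reductase, held more calls between genotypes than under hypoxia, as did all tested genes. Of 14 tested genes, 0 rose and 1 fell under hypoxia in each genotype. GLN1;4, a cytosolic glutamine synthetase, fell in wild type, with a log2 fold change of -1.65 ± 0.31 (edgeR adjusted p = 0.00795). GDH2, a subunit of mitochondrial glutamate dehydrogenase, fell in med25-1, at -1.07 ± 0.23 (edgeR adjusted p = 0.0196), a call lost without med25-1 control replicate 3 and with the 2 groups alone (edgeR adjusted p of at most 0.163). Between genotypes 3 were higher and 5 lower in med25-1 under hypoxia, and 2 higher and 2 lower under control conditions, where 21.6% and 17.1% of all tested genes were called. The 8 under hypoxia became 5 without wild-type hypoxia replicate 1 or 3, 4 with the 2 groups alone and 7 without med25-1 hypoxia replicate 3. The 4 under control conditions became 1 without wild-type control replicate 1 or 3 and 2 without wild-type control replicate 2 or med25-1 control replicate 1 or 2. They became 8 without med25-1 hypoxia replicate 3 and 9 with the 2 groups alone. GLN1;1, another cytosolic glutamine synthetase, stood at 252, 150.3 and 478 CPM in the med25-1 hypoxia libraries, against 51.8, 69.05 and 58.6 CPM in the wild-type hypoxia libraries. Under control conditions it stood at 163, 241 and 128 CPM in med25-1, against 56.6, 66.98 and 74.5 CPM in wild type. All 6 med25-1 libraries lay above all 6 wild-type libraries, with a log2 difference of 2.29 ± 0.36 under hypoxia (edgeR adjusted p = 0.00141) and 1.43 ± 0.35 under control conditions (edgeR adjusted p = 0.0181). The control call was lost without med25-1 control replicate 2 or any 1 wild-type control library, at edgeR adjusted p of at most 0.0686. GLN2, the chloroplast glutamine synthetase, was lower in med25-1 under control conditions, at -0.59 ± 0.16 (edgeR adjusted p = 0.0239), a call lost without replicate 1 or 3 of either control group. ASN2, an asparagine synthetase, was lower in med25-1 under hypoxia, at -1.11 ± 0.21 (edgeR adjusted p = 0.00372), and ASN3, of the same family, was lower under control conditions, at -1.29 ± 0.25 (edgeR adjusted p = 0.00549). GDH3, a glutamate dehydrogenase subunit with few reads, was higher in med25-1 under hypoxia by 2.03 ± 0.45 (edgeR adjusted p = 0.00872).

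Nitrate reductase transcript is known to follow light and the clock, and 9 such genes were read beside it. Under hypoxia edgeR called 0 of 9 in either genotype, with 4 in med25-1 and 2 in wild type at an unadjusted p under 0.05, and DESeq2 called 1 in each. Over all tested genes edgeR called 5.28% in med25-1 and 6.48% in wild type, and 23.9% and 18.2% had an unadjusted p under 0.05. Of the 9, the smallest p was that of CCA1, at 0.51 ± 0.17 in med25-1 (edgeR adjusted p = 0.0944) and 0.60 ± 0.17 in wild type (edgeR adjusted p = 0.0554). Between genotypes edgeR called 2 of the 9 under hypoxia and 1 under control conditions, where 21.6% and 17.1% of all tested genes were called. Both counts are near those shares and are no result about light and clock genes. PRR9, a clock repressor of the morning, was higher in med25-1 by 1.98 ± 0.24 under hypoxia (edgeR adjusted p = 0.00031) and 1.66 ± 0.24 under control conditions (edgeR adjusted p = 0.00088). PRR5, a later member of that family, was lower in med25-1 under hypoxia, at -1.26 ± 0.25 (edgeR adjusted p = 0.00515). PRR9 moved in both comparisons in which NIA2 was called and PRR5 in 1 of them, and their part in the NIA2 difference was not tested.

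**Figure D4:**
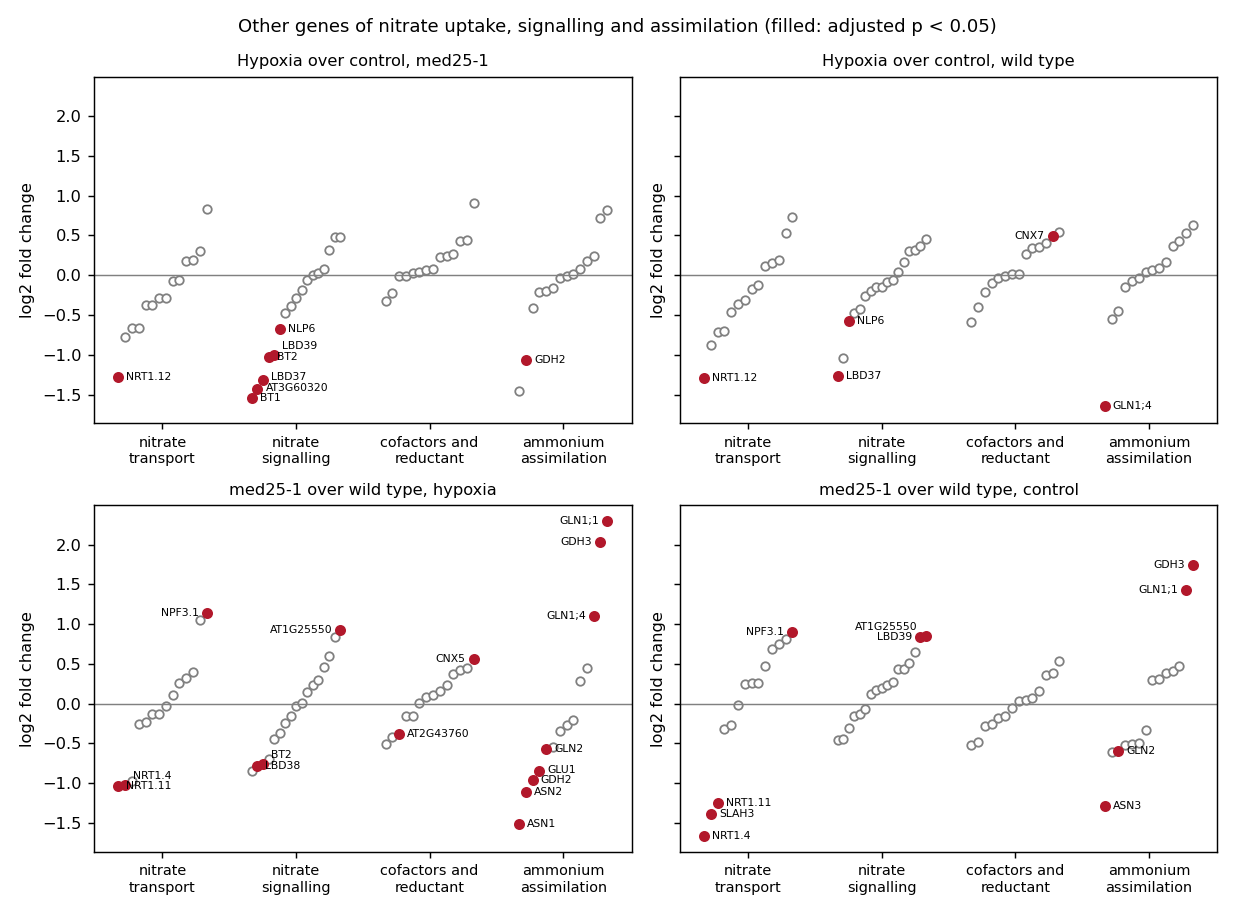
Log2 fold change (vertical axis) of the tested genes of nitrate transport, nitrate signalling, cofactors and reductant, and ammonium assimilation in 4 comparisons, each list sorted by value along the horizontal axis. Filled and named points have an edgeR adjusted p under 0.05: 6 of 17 genes of nitrate signalling fell under hypoxia in med25-1 (3.4% of all tested genes; 2 of the 17 without med25-1 control replicate 3, 1 with the 2 groups alone), and 8 of 14 genes of ammonium assimilation differed between genotypes under hypoxia (21.6% of all tested genes; 5 of the 14 without wild-type hypoxia replicate 1 or 3, 4 with the 2 groups alone).

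Profiles most like those of the called members were taken as the tested genes with the smallest root mean square difference in log2 CPM over the 12 libraries, after centring each gene on its own mean. Nearest to HB1 were AT3G10040, which is the low oxygen-induced regulator HRA1, at 0.579, then AT2G17850, of the rhodanese superfamily, at 0.666, and AT4G10265, of a wound-responsive family, at 0.688. HB1 itself varied by a root mean square of 3.48 about its mean. Nearest to GLB3, which varied by 0.836, were SIP1, a raffinose synthase, at 0.233, AT3G12150, of the alpha/beta hydrolase family, at 0.272, and AT3G13310, a DnaJ-domain protein, at 0.278. NIA2 varied by 0.743, and its nearest were AAE3, an acyl-activating enzyme, at 0.261, AT1G02020, of the nitroreductase family, at 0.285, and AT4G37520, of the peroxidase superfamily, at 0.291. GSNOR1 varied by 0.249, and PRS3, AT1G76140 and PGGT-I lay at 0.0858, 0.0895 and 0.0929 from it. These distances are descriptions over libraries that share groups and carry no test.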

How the data were processed

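Poly(A) RNA of rosettes was sequenced after a stranded library kit, per the labels' protocols, and groups and replicate numbers came from the titles. The sources used here name no aligner or counter, and the build is TAIR 10 per the submitters' processing notes. The authors deposited 1 table of 33208 features and 293 columns, of which 217 were not used. Its counts of uniquely placed gene reads were tested as deposited, and its RPKM values, made from exon reads per the file headers, gave levels per length. Of the features, 32909 matched the RefSeq TAIR10.1 annotation by identifier, 32908 with the same start and end, and upstream windows of 250 bases were read from that genome. Protein sequences were not used here.

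Genes were kept by filterByExpr (18212), scaled by TMM and fitted with edgeR 4.0.16 in R 4.3.3, with 1 mean per group over all 12 libraries. Contrasts were tested two-sided, adjusted by Benjamini-Hochberg over all tested genes. Each SE came from the log2 fold change and the square root of its F statistic. It is approximate, as are the 95% intervals. The median log2 fold change of all genes lay within 0.05 of 0 in each contrast. Alternatives were DESeq2 1.42.0, its size factors, no filter, other read classes, the 2 groups alone, a replicate block and leaving out each library. Named genes were the 7 members and up to 3 called genes of each list with the smallest p. For hypoxia the smallest alone was named where none was called. The 3 genes most like each called member (prior count 2) were named too, with ADH1, PDC1 and MED25. Replicates differed by more than sampling noise (chi-square per degree of freedom 4.17 to 81.9). Same-numbered libraries correlated in their deviations from the group means at 0.49, 0.114 and 0.208 between the hypoxia groups of the genotypes. The numbers may pair those, but the labels do not say that a number marks a shared batch. Of 36 pairs of libraries with unlike numbers over all groups, 11 also exceeded 0.1. In each of the other 3 comparisons at least 1 pair lay under 0.1. The fit was tested on counts simulated with a common spread for all genes. It recovered 53% of 2-fold changes for hypoxia in wild type and 61% between genotypes under control conditions. For the interaction it recovered 16% of 2-fold and 92% of 4-fold changes. The members, lists and tests were chosen with earlier results of these data known.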

Additional observations from a re-analysis of the deposited data

How the results depend on the processing

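HB1 and GLB3 kept their direction and their calls for hypoxia in both genotypes under all 19 alternatives. Other member calls were less stable, as given above. Members called between genotypes under hypoxia numbered 2 with DESeq2's size factors, 3 with DESeq2 and 0 with the 2 groups alone, against 1, and DESeq2 called 4 for hypoxia in wild type, against 2. Leaving out 1 library gave 2 to 3 members called for hypoxia in each genotype and 0 to 2 between genotypes under each treatment. Over all genes, DESeq2 called 1905 for hypoxia in med25-1, against 961, and 16 for the interaction, against 0. With the 2 groups alone the counts were 175 for hypoxia in med25-1, 2408 for hypoxia in wild type, 1819 between genotypes under hypoxia and 5177 under control conditions. Leaving out 1 library gave 323 to 1841, 559 to 1933, 2214 to 5124 and 1285 to 5027 in the same order. Of calls for hypoxia in med25-1, 35.6% were higher with edgeR and 51.2% with DESeq2. Between genotypes under hypoxia 55.5% were higher, against 70.1% with the 2 groups alone.

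Some values that were not called changed sign when 1 library was left out. HB2 for hypoxia in med25-1 ran from -0.60 to 0.21. NIA1 between genotypes under hypoxia ran from -0.025 (without med25-1 hypoxia replicate 3) to 0.93, and HB1 between genotypes under control conditions from -0.27 to 0.18. The interaction term ran from -0.46 to 0.35 for HB2, -0.70 to 0.26 for NIA1, -0.73 to 0.030 for NIA2 and -0.19 to 0.072 for NIR1. The cause was not tested in any of these.

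Same-numbered libraries correlated at -0.313 to 0.49 over all groups (median 0.0195). By these correlations the numbers may pair the libraries for the genotypes under hypoxia, which the labels do not state. Over all tested genes no pairing was seen for the other comparisons. With the replicate block, NIA1 was called for hypoxia in med25-1 (1.27, edgeR adjusted p = 0.0335) and in wild type (1.29, edgeR adjusted p = 0.0254). For these 2 comparisons the labels do not say that a number marks a shared batch. Their same-numbered pairs correlated at 0.364, -0.313 and 0.0457 in med25-1 and at -0.291, -0.122 and -0.0963 in wild type. NIA1 itself climbed with replicate number in med25-1 under both treatments and in wild type under hypoxia, and not in wild type under control conditions. What gave that order was not tested. The block changed no other member call, and all genes called were 800 for hypoxia in med25-1, 1136 for hypoxia in wild type, 3810 between genotypes under hypoxia and 3079 under control conditions. The NIA1 share had p = 0.0312 in the exact test of same-numbered differences, the smallest p that test can give. That test pairs hypoxia with control libraries by a number that the labels do not explain, so nothing further is drawn from it. Control reads of HB1 and GLB3 (45 to 95 a library) and 3 libraries a group limit the precision.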
